A study of Homo sapiens with 24 samples.

Results

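Long non-coding RNAs (lncRNAs) are long transcripts, many of them spliced and capped like mRNAs, without a known long reading frame. The 6 described here were chosen as well-known names, with earlier results of these data known, as a reference for RNA that is nuclear or little translated. They are MALAT1, NEAT1, NORAD, TUG1, DANCR and CYTOR, 6 of the 54583 genes in the count table, and all 6 are among the 12058 genes with at least 1 read in every library. PANC-1 cells, which stem from a human pancreatic ductal carcinoma, were treated for 6 h with the solvent DMSO, with 40 µM CID661578, a compound that binds the kinase MNK2, or with 5 µM cercosporamide, an inhibitor of the MNK kinases. Each treatment had 4 replicate plates. From every plate, total cytosolic RNA and the RNA bound to more than 3 ribosomes (polysome-associated RNA) were sequenced as separate libraries, which gave 24 libraries from 12 plates. All plates are of a single cell line, and the doses of the compounds differ.

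MALAT1 and NEAT1 lie next to each other on chromosome 11 and are known as nuclear RNAs. MALAT1 gathers in nuclear speckles, NEAT1 is the scaffold of paraspeckles, and MALAT1 and the long form of NEAT1 are cut at their 3′ end by RNase P so that they end in a genomically encoded A-rich tract instead of a poly(A) tail. The short form of NEAT1, from the same start, has a poly(A) tail. NORAD is a mainly cytoplasmic RNA that binds Pumilio proteins, and TUG1 is found in both nucleus and cytoplasm. DANCR and CYTOR are spliced RNAs with known cytoplasmic pools. A ribosome that reads a short open reading frame on such an RNA, or another heavy complex that holds the RNA, can carry it into the polysome fractions of a sucrose gradient, so that recovery there is not in itself a measure of protein synthesis.

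The sequences behind these features were read from GRCh38, and gene models were taken from GENCODE v44 and RefSeq. MALAT1 (chr11:65497738-65506516 in RefSeq, plus strand) and NEAT1 (chr11:65422798-65445540, plus strand) are single-exon genes. The bases of MALAT1 directly before the small RNA cut from its end (chr11:65506087-65506116) and the last bases of the long form of NEAT1 (chr11:65445511-65445540) are printed because the 2 RNAs share this kind of end, with the A-rich tract in capitals.
MALAT1 3′ end: ttttctagcttAAAAAAAAAAAAAGCAAAA
NEAT1 3′ end: ctgtgaaagagtgagcaggAAAAAGCAAAA

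NORAD (chr20:36045618-36051018 in GENCODE, minus strand) is a single exon of 5401 nt. The Pumilio recognition motif was searched as TGTANATA on the transcribed strand only, with overlapping matches counted. NORAD held 15 matches, or 2.78 per kb, while 29.6% of the transcripts of tested genes with a sequence held any. Only 3 tested genes had 15 or more, with a maximum of 17 in LNPEP. NEAT1 held 6 matches over 22743 nt, TUG1 held 2 over 7474 nt, and MALAT1, DANCR and CYTOR held none. The matches in NORAD lay between nt 819 and nt 4664 of the transcript, and some followed each other closely, as at nt 1500-1507 and nt 1509-1516. Examples of the 3 variants found in NORAD are printed with the motif in capitals, from chr20:36050182-36050211, chr20:36049702-36049731 and chr20:36049492-36049521, all on the minus strand.
NORAD element 1: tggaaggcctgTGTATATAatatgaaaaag
NORAD element 3: aaatcacatttTGTAAATAcctttttgtta
NORAD element 5: tgtgtatatagTGTACATAaaggacagacg

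TUG1 (chr22:30969265-30979395, plus strand, 3 exons) is listed as a protein-coding gene in both GENCODE v44 and RefSeq, unlike the other 5. DANCR (chr4:52712394-52720697 in RefSeq, plus strand) holds SNORA26 and MIR4449 inside its span. CYTOR (chr2:87455427-87521518 in RefSeq, plus strand) shares stretches of sequence with MIR4435-2HG on the same chromosome (chr2:111195866-111495161, minus strand). Only annotated transcripts inside the RefSeq spans were compared, 19 of 39 for CYTOR and 100 of 108 for MIR4435-2HG. Of the 50-nt windows in these CYTOR transcripts, 37.0% also occurred in the MIR4435-2HG transcripts, whose windows were shared in 6.13%. Only identical windows were counted, so 37.0% is not the share of reads that fit both genes. The longest shared stretch was 431 nt. A 30-base piece of it is printed, since reads from it cannot be assigned to one gene: it stands on the plus strand at chr2:87457992-87458021 in CYTOR and on the minus strand at chr2:111492495-111492524 in MIR4435-2HG.
CYTOR and MIR4435-2HG: cccatgaggaacaagcctgtggggggactg

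With its default settings, the read counter adds a multi-mapping read to each gene it aligns to. CYTOR and MIR4435-2HG can therefore count the same reads. The settings also ignore the strand and leave out a read that overlaps 2 genes. The printed piece also lies inside the spans of LINC01943 on the CYTOR side and SOCAR on the MIR4435-2HG side. Each of these had 0 to 3 reads per library. Whether their exons cover the piece was not checked, so its reads may count for both CYTOR and MIR4435-2HG or for neither. The antisense gene TALAM1 covers 82.1% of the RefSeq span of MALAT1. TALAM1 itself had 0 to 9 reads per library and was at 0 in 11 of 24 libraries. With these spans, reads from the shared part count for neither gene and the MALAT1 level rests on the remainder, so levels are not compared between MALAT1 or CYTOR and other genes. The libraries were made from cytosolic RNA with priming at poly(A). Values of the nuclear RNAs MALAT1 and NEAT1 are therefore not their levels in the whole cell.

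Libraries held between 9268041 and 12184749 reads on genes, except the polysome library of replicate 4 with cercosporamide, which held 1592459. The epithelial keratin genes KRT8, KRT18 and KRT19 were high in every library, from 698 counts per 1000000 reads (CPM) for the lowest KRT19 value to 13585 for the highest KRT8 value, whereas the other markers of ducts and epithelia were low, with 3.14 to 31.8 CPM for KRT7, 9.41 to 52.3 for SOX9, 2.96 to 11.2 for EPCAM and at most 0.902 for CDH1. INS, PRSS1, PTPRC and ALB, which mark beta cells, acinar cells, leukocytes and hepatocytes, were at 0 in all libraries. GCG, CPA1 and PECAM1, which mark alpha, acinar and endothelial cells, reached at most 0.269, 0.290 and 0.514 CPM. COL3A1, a fibroblast marker, had 0.576 to 14.0. Levels below are CPM, reads scaled to the TMM-normalized library size, and thus relative values within a library. Values of 4 replicates are given in the order of replicates 1 to 4. Tests were edgeR's quasi-likelihood test over all 12058 genes with Benjamini-Hochberg adjustment, and a gene was called when its adjusted p was under 0.15 and its change over 1.2-fold.

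How far the lncRNAs enter polysomes was first asked in cells with DMSO alone. DANCR, CYTOR and MALAT1 were depleted from polysome-associated RNA, 5.61-fold, 3.90-fold and 2.83-fold lower than in total RNA. NORAD and TUG1 were each 1.39-fold higher, calls that were lost at an adjusted p below 0.05, and NEAT1 did not pass the test. Of the 6, 5 were called, where 56% of all tested genes were called in this comparison (26.4% higher and 29.6% lower). The median of the 6 was -0.51 on the log2 scale and that of all genes -0.01. In bulk lysates, a lower level in every cell and a smaller share of cells with the RNA cannot be told apart.

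**Figure D1:**
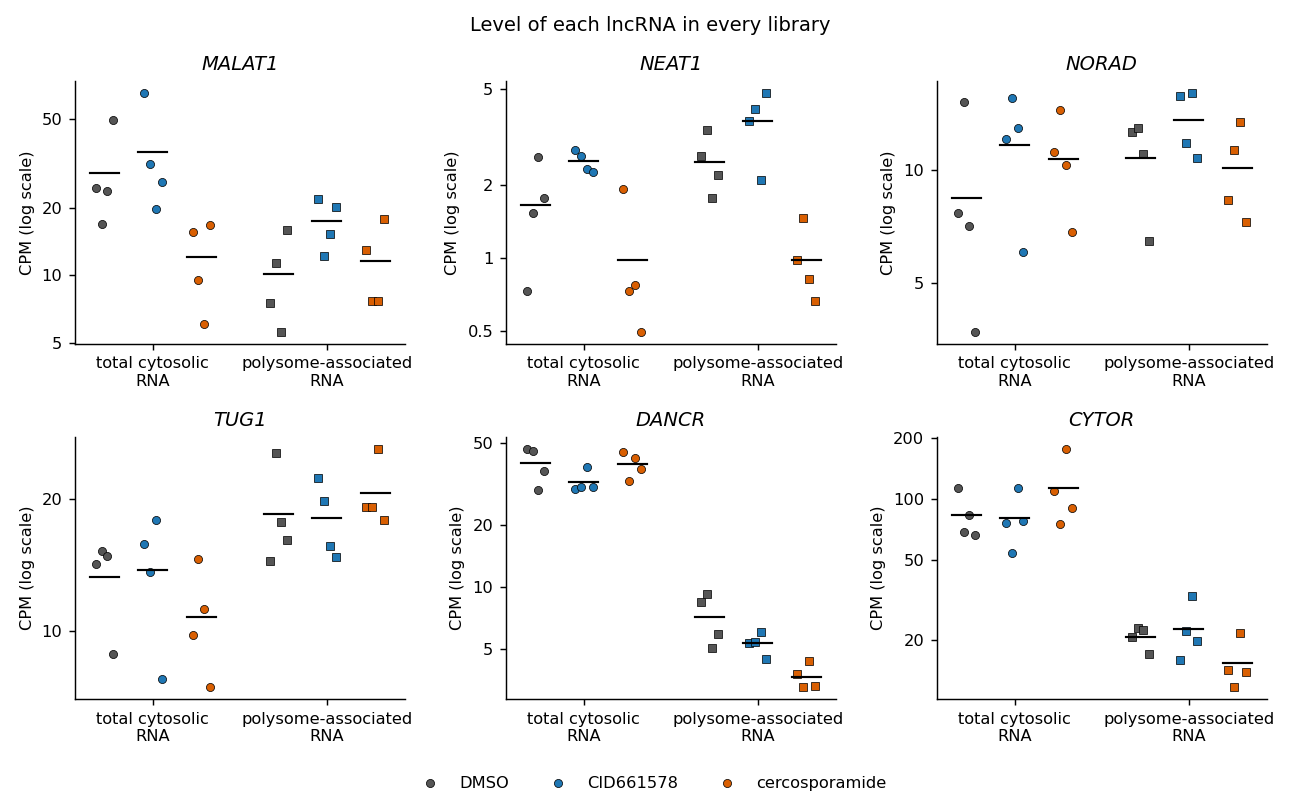
Level of each lncRNA in CPM on a log axis in total cytosolic RNA (circles) and polysome-associated RNA (squares), 1 point per library and a line at the mean of the 4 replicates. DANCR and CYTOR sit lower in polysome-associated than in total RNA in all 3 treatments. MALAT1 in total RNA with cercosporamide lies between 6.04 and 16.8 CPM, its highest value just below the lowest DMSO value of 17.0 CPM. This change in MALAT1 did not pass the edgeR test (adjusted p = 0.158).

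DANCR, described as an RNA that keeps progenitor cells undifferentiated, was the most depleted. Its total RNA level with DMSO was 46.9, 45.8, 29.5 and 36.7 CPM, and its polysome-associated level was 8.49, 9.19, 5.04 and 5.90 CPM. The ranges lie far apart, and the ratio within each plate was tight, at -2.47, -2.32, -2.55 and -2.64 on the log2 scale. edgeR estimated a log2 ratio of -2.49 (SE 0.20, adjusted p = 1.66e-09), and only 0.539% of tested genes had a lower one.

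CYTOR, named for its link to the cytoskeleton, had 113.8, 68.6, 83.1 and 66.2 CPM in total RNA with DMSO. In polysome-associated RNA it had 20.9, 23.1, 22.5 and 17.1 CPM, again with no overlap between the fractions. Its log2 ratio was -1.96 (SE 0.17, adjusted p = 4.37e-09). MIR4435-2HG, which shares sequence and possibly reads with it, had -1.92 (SE 0.16, adjusted p = 3.11e-09).

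MALAT1 had 24.6, 17.0, 23.8 and 49.5 CPM in total RNA and 7.55, 11.3, 5.60 and 15.9 CPM in polysome-associated RNA. All polysome values lay below all total values, although replicate 4 was high and replicate 2 had a much smaller difference than the others. The plate ratios were -1.70, -0.58, -2.09 and -1.64 on the log2 scale, and the fitted ratio was -1.50 (SE 0.26, adjusted p = 4.62e-05).

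NEAT1, from the neighbouring locus, was scarce, with 0.727, 1.53, 2.601 and 1.77 CPM in total RNA and 2.64, 3.37, 1.77 and 2.20 CPM in polysome-associated RNA, which correspond to 7 to 41 reads per library. The fractions overlapped. The log2 ratio of 0.62 (SE 0.41, 95% confidence interval -0.22 to 1.47, adjusted p = 0.224) was positive in 3 of 4 plates and did not pass. It passed in 3 alternatives, without replicate 3 (1.11, adjusted p = 0.0710), with the GC trend of each library removed (0.73, adjusted p = 0.138) and with TMM within each fraction (0.90, adjusted p = 0.0737). Without replicate 1 it was 0.30, and with the length trend removed it was -0.50 (adjusted p = 0.344), with 0.0710 to 0.643 over all alternatives. Per kilobase of the canonical transcript, NEAT1 had 0.0728 ± 0.0339 CPM in total RNA with DMSO (SD, n = 4), NORAD 1.56 ± 0.894 and TUG1 1.77 ± 0.398. The NEAT1 value is divided by the 22743 nt of the long form, so it is not ranked here, and NORAD and TUG1 did not differ beyond their spread.

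NORAD had 7.68, 15.2, 7.11 and 3.71 CPM in total RNA with DMSO and 12.6, 13.0, 11.01 and 6.45 CPM in polysome-associated RNA. The fractions overlapped, and replicate 2 went the other way (-0.23 on the log2 scale against 0.63 to 0.80 in the others). Its log2 ratio was 0.48 (SE 0.24, adjusted p = 0.108).

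TUG1 had 14.2, 15.2, 14.8 and 8.83 CPM in total RNA and 14.4, 25.4, 17.7 and 16.1 CPM in polysome-associated RNA. Here too the fractions overlapped, with a positive difference in 4 of 4 plates that ranged from 0.02 to 0.87. The log2 ratio was 0.48 (SE 0.23, adjusted p = 0.0959). The calls for NORAD and TUG1 were lost at an adjusted p below 0.05 and when the trend of each library with transcript length was removed, where TUG1 had a ratio of 0.01 (adjusted p = 0.980, with 0.00857 to 0.980 over all alternatives) and NORAD 0.21 (adjusted p = 0.504, with 0.0121 to 0.504). NORAD was also lost with no replicate block (0.46, adjusted p = 0.152). Both were lost without replicate 4 (0.37 for NORAD and 0.34 for TUG1), NORAD also without replicate 1 (0.40) or replicate 3 (0.51) and TUG1 without replicate 2 (0.38).

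**Figure D2:**
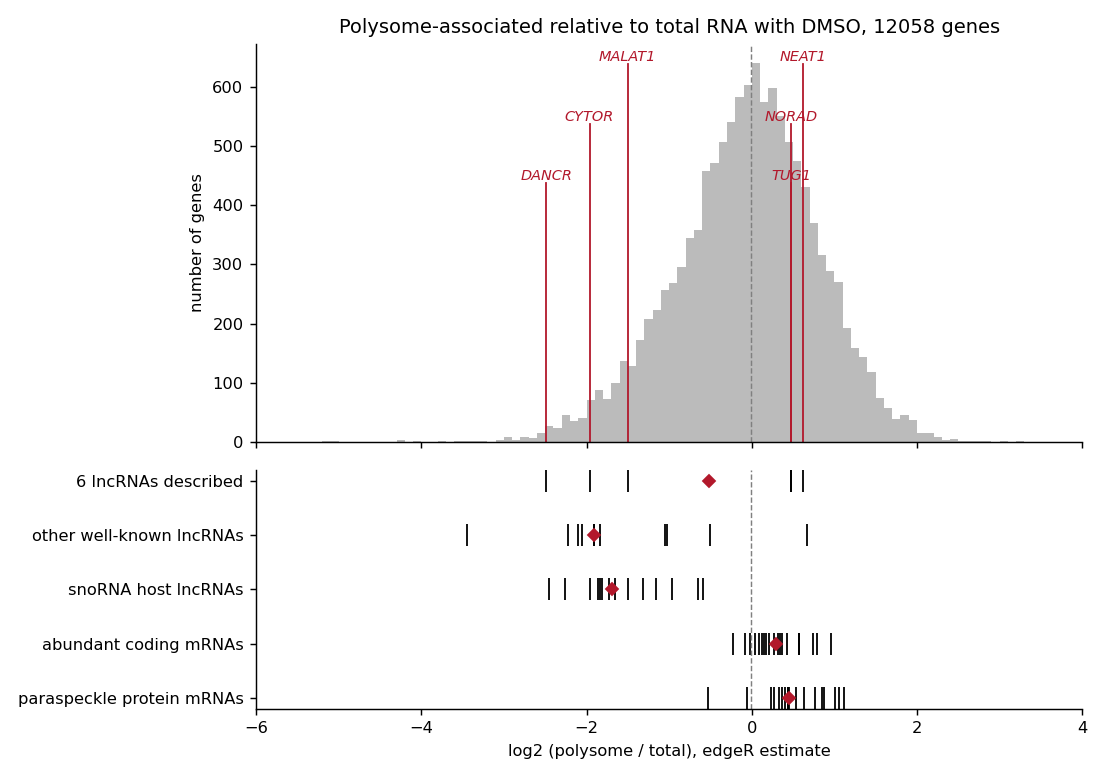
Histogram of the log2 ratio of polysome-associated to total RNA with DMSO over all tested genes (top, number of genes per bin of 0.1), with the 6 lncRNAs marked, and the same ratio for each tested gene of the lists used for comparison (bottom, 1 bar per gene, diamond at the median, dashed line at the median of all genes). DANCR, CYTOR and MALAT1 lie in the left tail beside most other lncRNAs, and NORAD, TUG1 and NEAT1 lie to the right of the median, where NEAT1 did not pass and was at -0.50 with the length trend removed.

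Other lncRNAs were mostly on the side of DANCR, where 26.4% of all genes were higher and 29.6% lower. Of 27 further well-known lncRNAs, 11 had reads in every library; of these, 10 were lower in polysome-associated than in total RNA, none was higher and 1 was not called, with a median log2 ratio of -1.91. DLEU2, the host of the microRNAs miR-15a and miR-16-1, was the lowest at -3.44 and H19, an imprinted RNA, the highest at 0.66 (adjusted p = 0.310). All 14 tested lncRNAs that host snoRNAs were lower, with a median of -1.69 and a range from -2.46 for SNHG6 to -0.59 for SNHG1. Among 20 abundant coding mRNAs used as a contrast, 9 were higher, none was lower and 11 were not called, with a median of 0.29. TUBA1B, an alpha-tubulin, was the lowest at -0.23 and EEF2, an elongation factor, the highest at 0.96.

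The mRNAs of proteins known to work with the 6 RNAs were more often higher than lower in the polysome fraction in 3 of 4 lists. Over all tested genes, 26.4% were higher and 29.6% lower. Of 18 paraspeckle protein mRNAs, 14 were higher and none was lower with DMSO (median 0.45), with HNRNPM, a splicing regulator, at 1.11 and SMARCA4, a chromatin remodeller, at -0.53, which did not pass. Of 16 tested mRNAs for nuclear speckle proteins and factors at the MALAT1 3′ end, 12 were higher and none was lower (median 0.56), from PNN at -0.32 (not called) to SRRM2, a speckle scaffold, at 1.35. Of 13 mRNAs for Pumilio proteins, the CCR4-NOT deadenylase and NORAD partners, 6 were higher and 1 was lower (median 0.44), with CNOT7, a deadenylase subunit, at -1.64. Of 8 tested PRC2 subunit mRNAs, 1 was higher and 1 lower (median 0.17), with EZH1, a methyltransferase, at 0.69 (not called) and PHF19, an accessory subunit, at -0.80.

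The next question was whether CID661578 changed the lncRNAs. None of the 6 passed the test in total RNA, where 0.473% of all genes were called, and none passed for polysome relative to total RNA, the change in translational efficiency (TE), where 0.207% of all genes were called. At an unadjusted p below 0.05 the count was 0 of 6 in both, and DESeq2 also called 0 of 6 in both. In polysome-associated RNA, MALAT1 passed, 1 of 6, where 10.3% of all genes were called.

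MALAT1 with CID661578 had 65.5, 31.5, 19.9 and 26.1 CPM in total RNA. Replicate 1 was the highest of all MALAT1 values, and the range overlapped that of DMSO. In polysome-associated RNA it had 21.9, 12.2, 15.3 and 20.3 CPM, against 5.60 to 15.9 CPM with DMSO, so these groups overlapped too. The log2 change in polysome-associated RNA was 0.83 (SE 0.25, adjusted p = 0.0667), or 1.78-fold, and was positive in 4 of 4 replicates. Without replicate 1 the change was 0.59 (adjusted p = 0.330) and without replicate 3 it was 0.64 (adjusted p = 0.321), both short of the threshold, and with no replicate block it was 0.78 (adjusted p = 0.455), with 0.0222 to 0.455 over all alternatives.

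Intervals of the TE change with CID661578 were wide for the other RNAs. NEAT1 had 2.80, 2.64, 2.33 and 2.26 CPM in total RNA and 3.68, 4.12, 2.096 and 4.81 CPM in polysome-associated RNA, and its TE change of -0.14 had a 95% confidence interval from -1.28 to 1.00. NORAD had 12.1, 15.6, 12.9 and 6.04 CPM in total RNA and 15.8, 11.8, 16.0 and 10.8 CPM in polysome-associated RNA, with a TE change of -0.20 (-0.89 to 0.48). Both groups of each RNA overlapped those with DMSO.
TUG1 had 15.7, 13.6, 17.9 and 7.76 CPM in total RNA and 22.3, 19.8, 15.6 and 14.7 CPM in polysome-associated RNA, and a TE change of -0.04 (-0.70 to 0.63). DANCR had 29.8, 30.5, 38.1 and 30.5 CPM and 5.35, 5.41, 6.05 and 4.46 CPM, and a TE change of -0.11 (-0.69 to 0.47). CYTOR had 75.6, 53.9, 113.2 and 77.7 CPM and 16.0, 22.2, 33.3 and 19.9 CPM, and a TE change of 0.15 (-0.34 to 0.64). For these 3 RNAs as well, every group overlapped its DMSO group, and the intervals of the TE change all include 0.

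**Figure D3:**
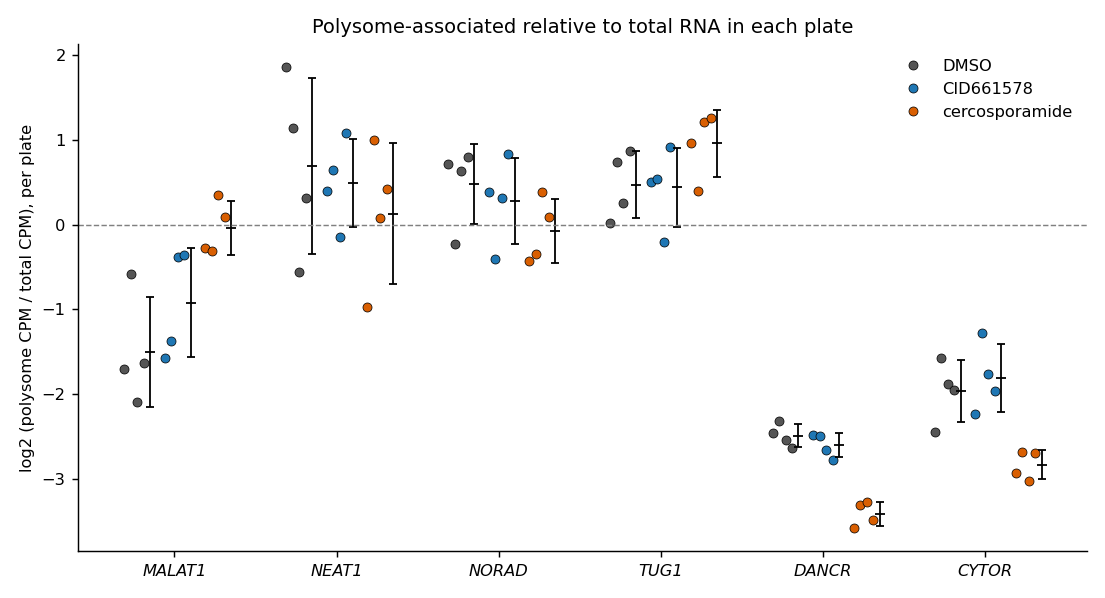
Log2 of the polysome CPM over the total CPM of the same plate, 1 point per plate, for each lncRNA and treatment, with the mean and SD of the 4 plates beside the points. With cercosporamide all DANCR plates lie between -3.58 and -3.28 and all CYTOR plates between -3.02 and -2.68, below every DMSO plate, while the MALAT1 plates lie between -0.31 and 0.35, above every DMSO plate.

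Cercosporamide changed 3 of the 6 in polysome relative to total RNA, where 28.4% of all genes were called (15.8% higher and 12.6% lower). MALAT1 rose 2.75-fold, and DANCR and CYTOR, already the least polysome-associated of the 6, fell by a further 1.91-fold and 1.85-fold. The median TE change of the 6 was -0.56 and that of all genes 0.00. In each of these 3 RNAs the 4 plate ratios with cercosporamide did not overlap those with DMSO. The share of all tested genes without such overlap was not computed, so the separation adds no support beyond the calls. In a fit without plate and replicate terms, 1 of the 3 calls was left, DANCR, with MALAT1 at an adjusted p of 0.202 and CYTOR at 0.252.

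MALAT1 had 15.7, 9.51, 6.04 and 16.8 CPM in total RNA with cercosporamide. All 4 lay below the lowest DMSO value of 17.0 CPM. These are cytosolic values, and the MALAT1 level of the whole cell was not measured. In polysome-associated RNA it had 12.9, 7.67, 7.70 and 17.9 CPM, which overlapped the DMSO range. The plate ratios were -0.28, -0.31, 0.35 and 0.09, with a mean of -0.04 ± 0.32 (SD, n = 4). Its TE change was 1.46 (SE 0.37, adjusted p = 0.00864), with a total RNA change of -1.35 (SE 0.32, adjusted p = 0.158), which missed the threshold, and a polysome-associated RNA change of 0.11 (SE 0.26, adjusted p = 0.790). An analysis of partial variance, which regresses polysome-associated on total RNA, gave a TE change of 0.42 (adjusted p = 0.553) in place of 1.46, with 0.00311 to 0.553 over all alternatives. Without replicate 2, the change in total RNA was -1.49 and passed (adjusted p = 0.119, with 0.00234 to 0.861 over all alternatives).

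DANCR had 45.1, 32.5, 42.2 and 37.3 CPM in total RNA with cercosporamide, within the DMSO range of 29.5 to 46.9 CPM. In polysome-associated RNA it had 3.76, 3.26, 4.35 and 3.31 CPM, all below the lowest DMSO value of 5.04 CPM, at 5 to 48 reads per library. The TE change was -0.94 (SE 0.30, adjusted p = 0.0341) and the change in polysome-associated RNA was -1.01 (SE 0.28, adjusted p = 0.0160), while the change in total RNA was -0.06 (SE 0.22, adjusted p = 0.950). The TE call was lost without replicate 1 (-0.86, adjusted p = 0.164) and without replicate 2 (-0.91, adjusted p = 0.154), with 0.00830 to 0.164 over all alternatives.

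CYTOR had 109.8, 75.3, 177.5 and 90.4 CPM in total RNA with cercosporamide, and replicate 3 was the highest CYTOR value of the series. In polysome-associated RNA it had 14.3, 11.7, 21.8 and 13.9 CPM, which overlapped the DMSO range of 17.1 to 23.1 CPM through replicate 3. The plate ratios of -2.94, -2.68, -3.02 and -2.70 were all below the lowest DMSO ratio of -2.45. Its TE change was -0.89 (SE 0.25, adjusted p = 0.0160), and that of MIR4435-2HG was -1.23 (SE 0.23, adjusted p = 0.00119). The change in polysome-associated RNA was -0.51 (SE 0.21, adjusted p = 0.0933). That call was lost with no replicate block (-0.46, adjusted p = 0.323), without replicate 1 (-0.54, adjusted p = 0.166) and without replicate 2 (-0.36, adjusted p = 0.375), with 0.0926 to 0.375 over all alternatives.

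NEAT1 was lower in polysome-associated RNA with cercosporamide, at 0.981, 1.47, 0.815 and 0.662 CPM against 1.77 to 3.37 CPM with DMSO. The groups did not overlap, although the value of replicate 4 comes from 1 read in the library of low depth. How many of all tested genes separate in this way was not computed. The change was -1.24 (SE 0.36, adjusted p = 0.0194), or 2.36-fold lower, and it was negative in 4 of 4 replicates. With DANCR and CYTOR, this made 3 of the 6 that fell in polysome-associated RNA and none that rose, where 33.1% of all genes were called (16% lower). In total RNA, NEAT1 had 1.93, 0.732, 0.771 and 0.496 CPM, which overlapped DMSO, with a change of -0.87 (SE 0.53, adjusted p = 0.566). The TE change of -0.59 (SE 0.67, adjusted p = 0.594) did not pass. In the analysis of partial variance the TE change was -1.19 and passed (adjusted p = 0.0231, with 0.0231 to 1 over all alternatives).

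NORAD and TUG1 had no call with cercosporamide in either fraction or for TE. NORAD had 11.2, 14.4, 10.3 and 6.84 CPM in total RNA and 8.34, 11.3, 13.4 and 7.28 CPM in polysome-associated RNA, with a TE change of -0.53 (95% confidence interval -1.24 to 0.18). TUG1 had 9.78, 14.5, 11.2 and 7.43 CPM in total RNA and 19.1, 19.2, 26.0 and 17.9 CPM in polysome-associated RNA, with a TE change of 0.49 (-0.19 to 1.17). Both RNAs overlapped DMSO in both fractions and in the plate ratio. In counts simulated with a log2 TE change of 1 with cercosporamide, the same test called 34% of 50 genes that rose and 39.1% of 46 genes that fell. In that simulation 11565 of 11756 genes had no change, whereas 28.4% of all genes were called in the data. These shares therefore do not give how often the test would call such a change in NORAD or TUG1. In cercosporamide-treated cells, TUG1 was higher in polysome-associated than in total RNA in 4 of 4 plates (log2 ratio 0.96, SE 0.24, adjusted p = 0.00135), where 69.4% of all genes were called. When the GC trend of each library was removed, the TE change of NORAD was -0.97 and passed (adjusted p = 0.0512, with 0.0512 to 0.709 over all alternatives).

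In total RNA with cercosporamide none of the 6 was called, where 0.0829% of all genes were. At an unadjusted p below 0.05 the count was 1, MALAT1. DESeq2 called 1 of 6, which was MALAT1 (log2 change -1.32, adjusted p = 0.0116, with 0.00234 to 0.861 over all alternatives).

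**Figure D4:**
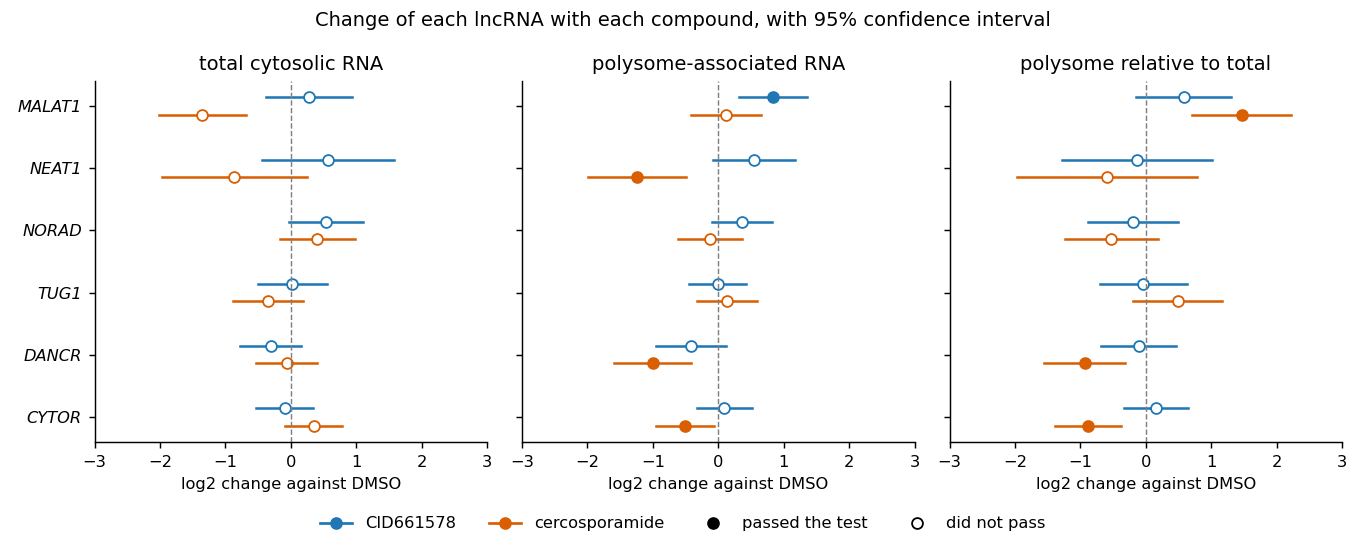
Log2 change of each lncRNA against DMSO with CID661578 (blue) and cercosporamide (orange), in total cytosolic RNA, in polysome-associated RNA and as polysome relative to total RNA. Points are edgeR estimates, lines are 95% confidence intervals, and filled points passed the test, which for polysome relative to total RNA are MALAT1 at 1.46, DANCR at -0.94 and CYTOR at -0.89, all with cercosporamide.

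The compounds were then set against each other, at doses that differ. Both comparisons with DMSO share the DMSO plates, so the direct contrast of their TE changes was used. It passed for 3 of 6, where 15.5% of all genes were called. MALAT1 was lower with CID661578 than with cercosporamide (-0.88, SE 0.36, adjusted p = 0.145), and DANCR (0.82, SE 0.30, adjusted p = 0.104) and CYTOR (1.04, SE 0.25, adjusted p = 0.0164) were higher. Each difference had the same sign in 4 of 4 replicates. For NEAT1, NORAD and TUG1 the differences of 0.45, 0.33 and -0.53 did not pass, with 95% confidence intervals of -0.89 to 1.79, -0.38 to 1.03 and -1.21 to 0.16.
Each of the 3 calls was lost when 1 replicate or another was left out. In a fit without plate and replicate terms none of them passed, and in the analysis of partial variance the MALAT1 difference was 0.38, of the opposite sign. MALAT1 was lost without replicate 1 (-0.73), 2 (-0.84) or 3 (-0.94), and also without the plate of replicate 4 with cercosporamide (-0.91). DANCR was lost without replicate 1 (0.72), 2 (0.83) or 4 (0.84), and CYTOR without replicate 2 (0.91).

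In the single fractions, MALAT1 was 3.09-fold higher in total RNA with CID661578 than with cercosporamide (log2 difference 1.63, SE 0.32, adjusted p = 0.0350). That was 1 of 6 called, where 0.522% of all genes were. The replicate differences were 2.06, 1.73, 1.72 and 0.63. Contrasts between the compounds within a single fraction were fitted in the main model only, so how they hold in the alternatives was not tested. In polysome-associated RNA 3 of 6 were higher with CID661578, where 22.1% of all genes were called, and these were NEAT1, 3.46-fold (1.79, SE 0.35, adjusted p = 0.00404), MALAT1 (0.72, SE 0.25, adjusted p = 0.0743) and CYTOR (0.61, SE 0.21, adjusted p = 0.0735). The groups of NEAT1 polysome values, 2.096 to 4.81 CPM and 0.662 to 1.47 CPM, did not overlap, although 0.662 CPM comes from 1 read in the library of low depth. The share of all tested genes without such overlap was not computed.

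Among the lists, most snoRNA host lncRNAs also fell in TE with cercosporamide, as DANCR and CYTOR did, where 12.6% of all genes fell. DANCR holds SNORA26 in its own span, so it is not separate from this class. Of 14 tested, 10 fell in TE, none rose and 4 were not called (median -0.88). The largest falls were in SNHG29 (-1.42, SE 0.28, adjusted p = 0.00170), SNHG5 (-1.26, SE 0.29, adjusted p = 0.00445) and GAS5 (-1.17, SE 0.24, adjusted p = 0.00222), an RNA whose spliced form carries a terminal oligopyrimidine start. Of the 11 other well-known lncRNAs, 3 fell, none rose and 8 were not called (median -0.51); those that fell were MIR4435-2HG, MEG3 (-0.81, SE 0.33, adjusted p = 0.0999) and HCG18 (-0.72, SE 0.27, adjusted p = 0.0718). With CID661578 none of the genes in either list passed for TE, with medians of -0.07 and 0.21 beside 0.03 for all genes.

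In the 4 lists of partner mRNAs, more genes rose than fell in TE with cercosporamide, and many were not called. Over all tested genes, 15.8% rose and 12.6% fell. Of 18 paraspeckle protein mRNAs, 11 rose in TE, none fell and 7 were not called (median 0.68), led by SMARCA4 (2.39, SE 0.86, adjusted p = 0.0580, at 1 to 29 reads per library), HNRNPH1 (1.26, SE 0.25, adjusted p = 0.00140) and HNRNPM (1.16, SE 0.29, adjusted p = 0.00792). Of 16 speckle and 3′ end factors, 6 rose, none fell and 10 were not called (median 0.44), led by PNN (1.98, SE 0.36, adjusted p = 0.000828), BCLAF1 and THRAP3, which act in splicing. Of 13 Pumilio and CCR4-NOT mRNAs, 5 rose, 1 fell and 7 were not called (median 0.39), among them PUM2, a Pumilio protein (1.18, SE 0.29, adjusted p = 0.00802). Of 8 PRC2 mRNAs, 5 rose, among them RBBP7 (0.83) and MTF2 (0.93), 1 fell, PHF19 (-1.08, SE 0.26, adjusted p = 0.00636), and 2 were not called. Of the 20 abundant coding mRNAs, 2 rose, NPM1 (0.91) and HSP90AB1 (0.62), none fell and 18 were not called. None of the genes of these 5 lists passed for TE with CID661578.

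Over the 24 libraries, the pattern of each lncRNA was also compared with that of the other genes by Pearson's r of log2 CPM. The libraries share plates, treatments and depth, so these values are descriptive. They also include both fractions, so a difference between total and polysome-associated RNA that genes share enters r. DANCR and CYTOR were both lower in polysome-associated RNA, and TUG1 was not. DANCR was most like CDKN2AIPNL (r = 0.985), ATOX1 (0.983) and GTF2A2 (0.983). CYTOR was most like MIR4435-2HG, which shares sequence and possibly reads with it (0.982), BRK1 (0.975) and TMSB10 (0.974). CYTOR and DANCR had r = 0.955 with each other.
The other 4 RNAs had looser neighbours. TUG1 was most like ASAP1 (0.856), WDR26 (0.846) and LCOR (0.838), and the genes most like NORAD included HMGA2 (0.766) and APOOL (0.763). MALAT1 was most like TMED2 (0.752), NIPA2 (0.731) and TOR1AIP1 (0.724), and NEAT1 was most like TRIM44 (0.648), EGLN1 (0.647) and ITFG2 (0.646). MALAT1 and NEAT1, the adjacent nuclear RNAs, had r = 0.276, and TUG1 and DANCR had r = -0.652.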

How the data were processed

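Total cytosolic and polysome-associated RNA of PANC-1 cells was measured in 24 libraries, grouped by treatment and fraction as labelled. The counts deposited by the authors are whole-number read counts per RefSeq gene, made from Smart-seq2 libraries (cDNA primed at poly(A)) by removing rRNA reads with BBDuk, aligning to hg38 with HISAT2 and counting with featureCounts of RSubread at its default settings, with no normalization. The RefSeq release was not given in the sources used here. Library depth was 1592459 to 12184749 reads, which limits precision for NEAT1 most, and intervals cover only the model's spread. All pairs of libraries differed beyond counting noise (chi-square at least 14.9 times its degrees of freedom).

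Genes with 0 counts in any library were removed, as in the study. The remaining 12058 were TMM-normalized and tested with edgeR 4.0.16 (R 4.3.3) in a model of plate, replicate within fraction, fraction, and fraction by treatment; total and polysome libraries were also fitted separately with the replicate as a block. Adjusted p is Benjamini-Hochberg over all tested genes. The replicate block follows the study, whose methods name the replicate as batch; deviations of treated and DMSO libraries of the same number correlated above 0.1 in 13 of 16 comparisons (-0.02 to 0.58). The study used anota2seq; here its place is taken by this model and, as an alternative, an analysis of partial variance with limma 3.58.1. Simulated counts with known changes of 1 and 2 on the log2 scale were recovered with median estimates of 0.883 and 2.05 for cercosporamide. Other alternatives were DESeq2 1.42.0, its size factors, other filters and normalizations, a stricter threshold, removal of GC and length trends (available for 96.0% of tested genes) and leaving out replicates.

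Sequences and gene models came from GRCh38, GENCODE v44 and RefSeq. Levels per kilobase used the GENCODE canonical transcript. Named genes are the 6 lncRNAs, MIR4435-2HG and TALAM1, for each list the tested genes with the highest and the lowest polysome relative to total RNA with DMSO and up to 3 genes per compound that passed for TE, and the 3 genes with the highest r to each lncRNA among those with a mean log2 CPM of at least 3. MEG3 and HCG18 fall under the same rule. The members and lists were chosen with earlier results of these data known. MIR4435-2HG is also in the list of other lncRNAs. Some genes that the naming rule picked are not reported here.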

Additional observations from a re-analysis of the deposited data

Results flagged for a closer look

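In 54 groups of 4 values (CPM per fraction and plate ratio, for each lncRNA and treatment), 4 had a value far from the other 3 by Dixon's ratio (gap over range), where chance gives about 1 in 20. The ratio was 0.836 for the NORAD plate ratio with DMSO, where replicate 2 was low. It was 0.851 for TUG1 in total RNA with DMSO, where replicate 4 was low, and 0.841 for TUG1 in polysome-associated RNA with cercosporamide, where replicate 3 was high. It was 0.914 for DANCR in total RNA with CID661578, where replicate 3 was high.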

How the results depend on the processing

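Of 720 single-gene values over 18 alternatives, 632 kept their direction and side of the threshold, 50 lost and 11 gained a call and 27 changed sign. The cause was not tested where a value moved. With no replicate block, in a fit with plate terms only, the number of the 6 called in polysome-associated RNA with CID661578 went from 1 to 0 and the calls of NORAD with DMSO, of CYTOR in polysome-associated RNA with cercosporamide and of MALAT1 between the compounds (-0.87, adjusted p = 0.177) were lost, with no other call changed, and with no block and no plate terms the numbers went from 5 to 3 for polysome relative to total RNA with DMSO, from 3 to 1 for TE with cercosporamide and from 3 to 0 for TE of CID661578 against cercosporamide. An adjusted p below 0.05 gave 3, 1 and 0 for DMSO, CID661578 against cercosporamide and polysome-associated RNA with CID661578. Removing the length trend gave 3 with DMSO, removing the GC trend or TMM within each fraction gave 6, no filter gave 1 for CID661578 against cercosporamide, and removing the GC trend gave 0 in polysome-associated RNA with CID661578. For total RNA with cercosporamide, DESeq2, no filter and removal of the GC trend each gave 1 in place of 0. With 1 replicate left out, the counts ranged from 3 to 5 with DMSO, from 2 to 3 for TE with cercosporamide, from 0 to 2 for CID661578 against cercosporamide, and from 0 to 1 for total RNA with cercosporamide and for polysome-associated RNA with CID661578. Over all genes, fits with no block and no plate terms called 957 genes in place of 3422 for TE with cercosporamide, and 18 in place of 1869 for CID661578 against cercosporamide.

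Values that changed sign were mostly near 0. Polysome relative to total RNA of NEAT1 was -0.50 with the length trend removed. In the analysis of partial variance, TE with CID661578 was 0.49 for NEAT1 and 0.12 for NORAD, and TE of CID661578 against cercosporamide was 0.38 for MALAT1. Total RNA of DANCR with cercosporamide was 0.00511 with the GC trend and 0.0690 with the length trend removed, polysome-associated TUG1 with CID661578 was 0.0223 with no filter and 0.0226 with filterByExpr, and polysome-associated MALAT1 with cercosporamide was -0.0880 with the GC trend removed. With 1 replicate left out, TE with CID661578 ranged from -0.45 to 0.22 for NEAT1 and from -0.21 to 0.0708 for TUG1, and TE of NEAT1 from -1.09 to 0.28 with cercosporamide and from -0.0557 to 0.79 between the compounds. Total RNA with CID661578 ranged from -0.12 to 0.68 for MALAT1, from -0.0344 to 0.12 for TUG1 and from -0.22 to 0.0777 for CYTOR, and that of DANCR with cercosporamide from -0.20 to 0.11. Polysome-associated RNA with CID661578 ranged from -0.26 to 0.10 for TUG1 and from -0.0623 to 0.21 for CYTOR, and with cercosporamide from -0.12 to 0.37 for MALAT1, from -0.27 to 0.0157 for NORAD and from -0.0242 to 0.32 for TUG1.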
